A study of Bos taurus with 15 samples.

Results

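Sprouty proteins, the related SPRED proteins and the dual specificity phosphatases (DUSP) are feedback inhibitors of the ERK pathway, and the ETS factors ETV4 and ETV5 are transcription factors that the same pathway induces. Growth factor receptors activate RAS, which passes the signal through RAF and MEK to ERK. Active ERK then induces transcription of the inhibitors, which restrain the same route, and of the ETS factors, which carry its output, so the mRNA of these genes is often read as a record of recent ERK activity. In adipose tissue, fibroblast, vascular endothelial and other growth factors act through this pathway on adipocyte progenitors and on the vessels. The family was taken as 10 listed symbols, *SPRY1*, *SPRY2*, *SPRY4*, *SPRED1*, *SPRED2*, *DUSP4*, *DUSP5*, *DUSP6*, *ETV4* and *ETV5*, and a gene was kept when its name was found in all 6 deposited tables. *SPRED2* and *ETV4* had no entry, which left 8 genes of the 13896 in the tables. The list was chosen by its role in the pathway and on a measured value, the difference of *SPRY4* from week 1 to week 16 after calving on the low energy diet.

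The 15 libraries were made from subcutaneous fat of the dewlap of primiparous Holstein cows, 3 in each of 5 groups. The first group was sampled at -4 weeks peripartum (wkpp), before the diets began, and is not divided by diet. The other cows received a low energy (LE) or a high energy (HE) diet from about that time on and were sampled at 1 or 16 wkpp. The study sequenced cows picked for an extreme energy balance at 1 wkpp, severe or moderate, and the labels give only the diet, so the groups go by diet here and diet and energy balance cannot be told apart.

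Library values are reads counted on exons, or on the entire gene with introns, divided by a size factor of the library (normalised reads). The reads of each library were recovered exactly from the deposited means, for all 8 genes in both analyses. They are not tied to a cow, so the 3 libraries of a group are listed from the deepest to the shallowest. The LE and -4 wkpp libraries held 5994381 to 11301449 exon reads on recovered genes and the HE libraries 1672745 to 5998935. Added spike-in RNA equalled 0.031 to 0.254% of the exon reads on genes in the LE and -4 wkpp libraries and 0.473 to 3.73% in the HE libraries. Every comparison of HE with another group below is therefore also one of libraries that differ in depth and spike-in share, and the part of these in the results was not tested. RNA came from 3 cows per group, so the spread within a group is one between cows, and the study biopsied its cows at each of the 3 times, so groups may share cows, but a library is not tied to a cow. A gene was called when the limma test with voom weights gave a Benjamini-Hochberg adjusted p below 0.01, over all genes, with exon reads and again with whole gene reads, in one direction.

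None of the 8 genes was called in a comparison in which it was tested, and between 0% and 3.43% of all genes were called there. *ETV5* had fewer normalised exon reads in every HE library than in any other, by 2.55 to 4.09-fold in the 3 comparisons that set HE against another group. In these 3 comparisons the exon values did not overlap for 39.4 to 46.8% of all genes. The share of all genes with every HE library lowest was not counted. With whole gene reads the pattern did not hold, since HE libraries of 1 wkpp with 439.8 and 426.8 were above an LE library of 1 wkpp with 367.1. With exon reads alone *ETV5* had an adjusted p below 0.01 at -4 relative to 1 wkpp in HE cows, and with whole gene reads it had not. The exon p missed 0.01 without library 1 of -4 wkpp (adjusted p 0.010) and without library 1 of HE at 1 wkpp (adjusted p 0.014). The difference of *SPRY4* between the LE libraries of 1 and 16 wkpp was in view when the family was chosen, so its values in these 6 libraries were high and low by choice. Every comparison of *SPRY4* that holds them, and the comparison of 1 with 16 wkpp in LE cows for all 8 genes, is therefore a description with no test. In bulk tissue, fewer cells of a type and less RNA per cell cannot be told apart.

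**Figure D1:**
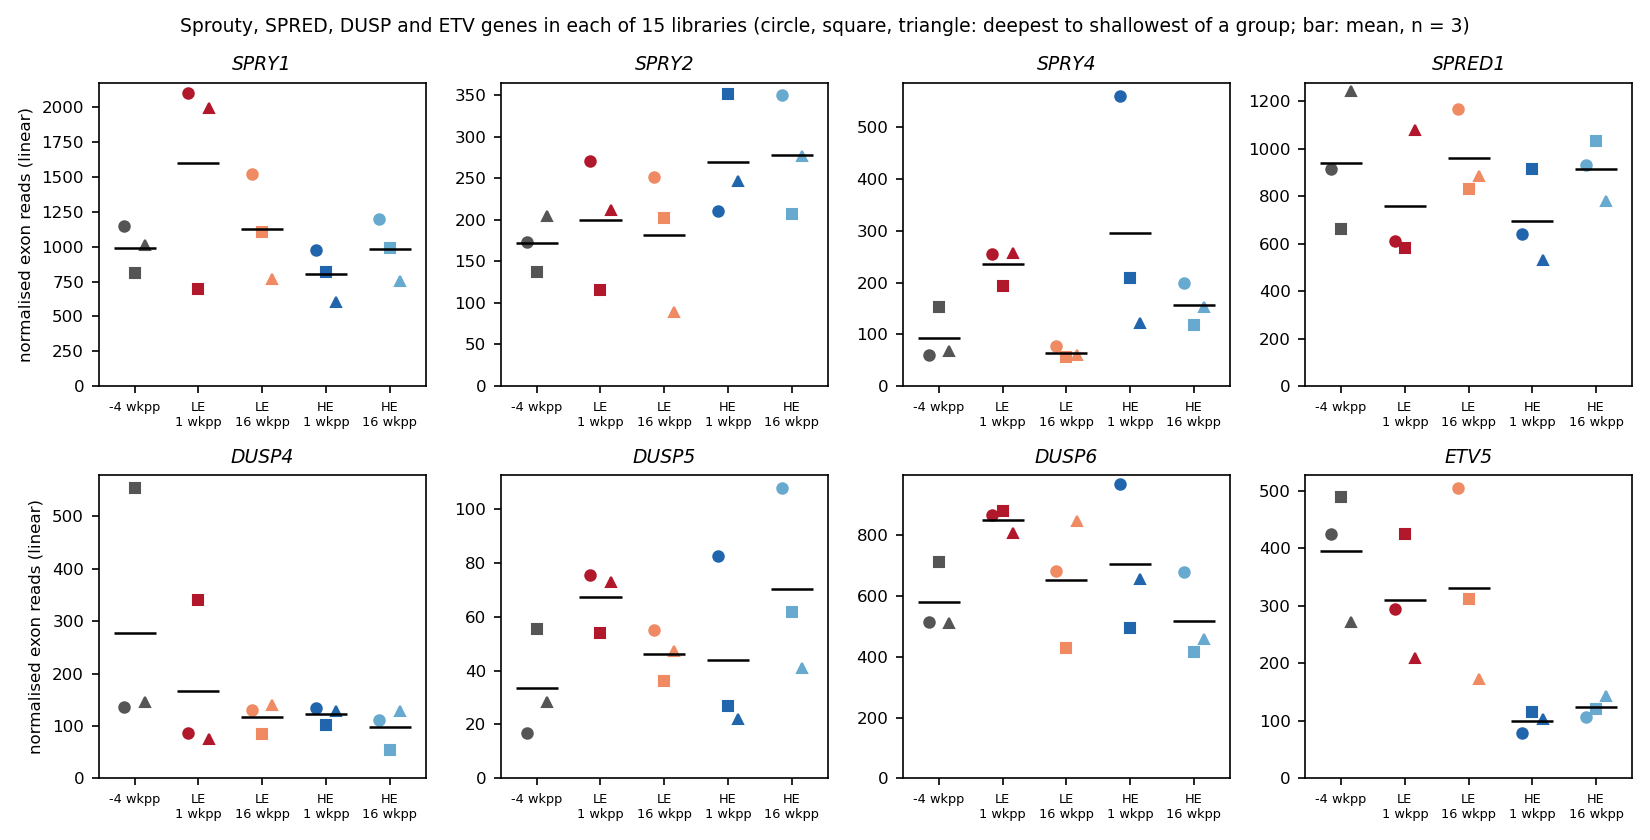
Normalised exon reads (linear axis from 0) of the 8 genes in each of the 15 libraries, by group, with a marker for each library and a bar at the group mean (n = 3). In *ETV5* all 6 HE libraries sit between 79.5 and 144, below the 9 others, and in *SPRY4* the 3 LE libraries of 16 wkpp sit between 56.1 and 77.9.

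Sprouty proteins are induced by growth factors and act near RAS and RAF to limit ERK activation. *SPRY4* had 60.2, 151.9 and 67.6 normalised exon reads in the -4 wkpp libraries. In LE cows it had 254.9, 193.7 and 257.7 at 1 wkpp and 77.9, 56.1 and 59.7 at 16 wkpp. In HE cows it had 560.5, 208.1 and 121.3 at 1 wkpp and 199.3, 118.7 and 152.1 at 16 wkpp. All LE libraries of 1 wkpp were above all libraries of -4 wkpp and of 16 wkpp LE. The HE libraries of 1 wkpp overlapped every other group but the LE libraries of 16 wkpp. One of them was above all other libraries, and the shallowest had 33 reads. In the order of group means, from HE 1 wkpp (297 ± 233, SD, n = 3) over LE 1 wkpp (235 ± 36.2), HE 16 wkpp (157 ± 40.5) and -4 wkpp (93.2 ± 50.9) to LE 16 wkpp (64.6 ± 11.7), each group overlapped its neighbour.

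At -4 relative to 1 wkpp in LE cows, *SPRY4* had a log2 difference of -1.41 (standard error 0.33) with exon reads and -1.66 (0.31) with whole gene reads, a description that uses the libraries in view. At -4 relative to 1 wkpp in HE cows, which holds none of them, the log2 difference was -1.77 (0.54, adjusted p 0.031 by limma) with exon reads and -1.74 (adjusted p 0.19) with whole gene reads, and the groups overlapped. Without the HE library of 560.5 the exon difference was -0.95. Both comparisons share the 3 libraries of -4 wkpp.

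In LE relative to HE cows at 16 wkpp, *SPRY4* had a log2 difference of -1.36 (0.27) with exon reads and -1.20 (0.23) with whole gene reads, again a description. At 1 wkpp that difference was -0.36 (0.45), and the groups overlapped. It turned to 0.49 without the HE library of 560.5 and to 0.06 with library quality weights.

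Between 1 and 16 wkpp the exon level of *SPRY4* was 3.56-fold higher at 1 wkpp in LE cows (log2 1.83) and its whole gene level 3.87-fold higher (log2 1.95), which is the value the family was chosen on. In HE cows the same exon difference was 0.79 (interval -0.37 to 1.95, adjusted p 0.52 by limma), and 0.05 without the HE library of 560.5. The LE change minus the HE change was 0.97 (0.60) for *SPRY4*, 1.18 (0.63) for *DUSP5* and between -0.18 and 0.67 for the other genes, all descriptions, since the first change was in view. The HE change of *DUSP5* alone was -0.6, and -0.06 without library 1 of HE at 16 wkpp or -1.51 without library 1 of HE at 1 wkpp. Over all genes the LE change minus the HE change was called for 0 of 9789 (0%) by limma. Of the 10294 genes tested for it with exon reads, 516 had an unadjusted p below 0.05.

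*SPRY1* and *SPRY2*, the other Sprouty genes of the family, had identical reads in the exon and whole gene analyses in all 15 libraries, so the 2 analyses differ for them only in the size factors. *SPRY1* had 1151, 809 and 1014 normalised exon reads at -4 wkpp. In LE cows it had 2101, 699.8 and 1994 at 1 wkpp and 1523, 1103 and 766 at 16 wkpp. The HE libraries had 979.9, 822 and 607 at 1 wkpp and 1199.6, 990.7 and 755 at 16 wkpp. In LE cows at 1 wkpp 2 libraries were the highest of all 15 while the remaining one was below every library of -4 wkpp. The largest difference was 0.82 (0.42, adjusted p 0.21) for LE over HE at 1 wkpp, and no comparison had groups that did not overlap. That difference was 1.32 (adjusted p 0.026 by limma) without library 2 of LE and 0.55 (adjusted p 0.48) without library 1 of LE.

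*SPRY2* had 173, 138 and 205 normalised exon reads at -4 wkpp. In LE cows it had 270.1, 115 and 212 at 1 wkpp and 251, 202 and 89.6 at 16 wkpp. Among HE libraries it had 210.2, 351 and 246 at 1 wkpp and 349.5, 206 and 277 at 16 wkpp. All 6 HE libraries were above the 3 libraries of -4 wkpp, and those of both LE groups spanned them. The difference at -4 relative to 1 wkpp in HE cows was -0.62 (0.27, unadjusted p 0.048, adjusted p 0.11). The difference of LE from HE at 16 wkpp was -0.77 (0.39, adjusted p 0.18), with groups that overlapped, and -0.35 without library 3 of LE.

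*SPRED1*, which recruits neurofibromin to the membrane and so lowers active RAS, had overlapping groups throughout. Its normalised exon reads were 916, 662 and 1242 at -4 wkpp, 611, 583 and 1080.5 in LE cows at 1 wkpp, and 1169.8, 829 and 885 in LE cows at 16 wkpp. Values of HE cows were 642, 916 and 533 at 1 wkpp and 932, 1032 and 779.7 at 16 wkpp. The 6 exon differences lay between -0.41 and 0.39 on the log2 scale, and in the 5 tested comparisons each 95% interval included 0. The interval of LE relative to HE at 16 wkpp ran from -0.38 to 0.47, that is 0.77 to 1.39-fold.

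**Figure D2:**
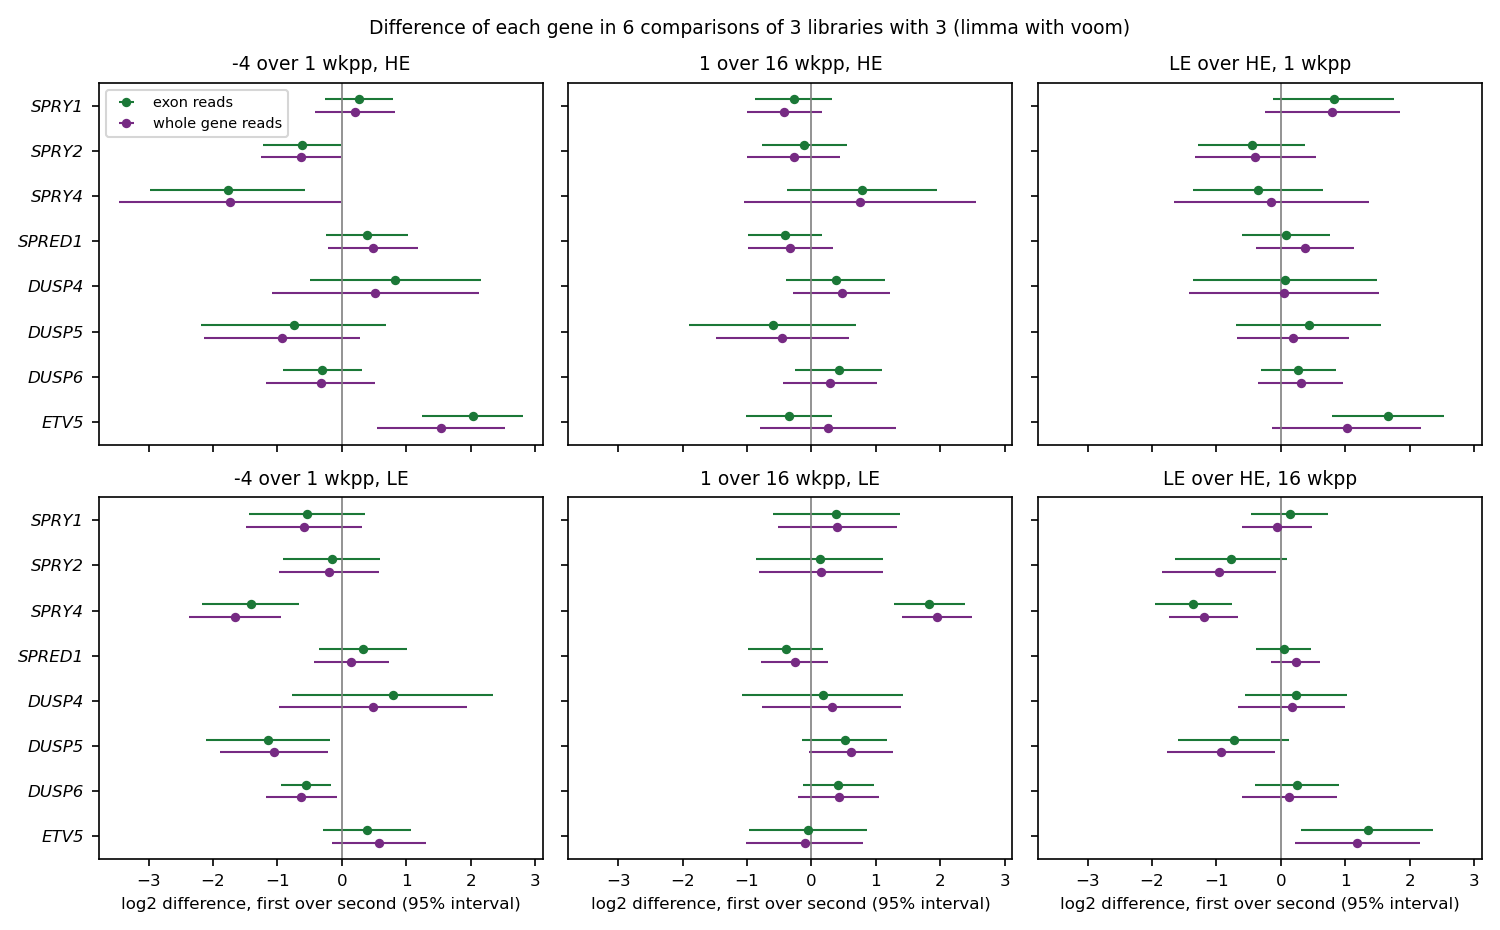
Difference of each gene in the 6 comparisons, as log2 of the first group over the second with its 95% interval, for exon reads and for whole gene reads (limma with voom, 3 libraries against 3). No gene was called where it was tested, and the *SPRY4* values in the 4 comparisons with an LE group are descriptions. The *ETV5* differences that involve HE at 1 wkpp were smaller with whole gene reads (1.54 and 1.03) than with exon reads (2.03 and 1.66).

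The DUSP proteins remove phosphate from ERK itself. *DUSP6* acts on ERK in the cytoplasm. It had 515.5, 710.2 and 510.5 normalised exon reads at -4 wkpp, 866, 879 and 806 in LE cows at 1 wkpp, and 681, 429 and 848 in LE cows at 16 wkpp. In HE cows it had 969, 495 and 654 at 1 wkpp and 679, 415 and 459 at 16 wkpp. The LE libraries of 1 wkpp were close together and above the 3 of -4 wkpp, with a log2 difference of -0.56 (0.17, unadjusted p 0.010, adjusted p 0.17) at -4 relative to 1 wkpp. With whole gene reads these groups overlapped and the difference was -0.63 (adjusted p 0.40).

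*DUSP5*, a nuclear phosphatase for ERK, was the least covered gene, with 6 to 139 exon reads in a library. It had 16.8, 55.3 and 28.2 normalised exon reads at -4 wkpp, 75.5, 54.0 and 72.8 in LE cows at 1 wkpp, and 54.9, 36.3 and 47.4 in LE cows at 16 wkpp. The HE libraries had 82.6, 27.0 and 22.1 at 1 wkpp and 108, 61.9 and 40.8 at 16 wkpp. At -4 relative to 1 wkpp in LE cows the difference was -1.15 (0.42, unadjusted p 0.025, adjusted p 0.26), with exon values that overlapped and whole gene values that did not. Without library 1 of -4 wkpp it was -0.67 (adjusted p 0.74). In LE relative to HE cows at 16 wkpp the difference was -0.73 (0.38, adjusted p 0.19), and again only the whole gene values (log2 -0.93, adjusted p 0.14) did not overlap. Without library 1 of HE at 16 wkpp the exon difference was -0.18. At -4 relative to 1 wkpp in HE cows the difference was -0.74 (0.65) with an interval from -2.18 to 0.69, and 0.17 without library 1 of HE at 1 wkpp. The HE libraries of 1 wkpp with 10 and 6 exon reads carry large counting error.

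*DUSP4*, a nuclear phosphatase for ERK and related kinases, was dominated by 2 libraries. At -4 wkpp it had 135, 553 and 145 normalised exon reads, and in LE cows at 1 wkpp 86.4, 340.0 and 75.4. In LE cows at 16 wkpp it had 130.2, 83.8 and 139.5. Among HE libraries it had 135, 103 and 129 at 1 wkpp and 110.9, 54.2 and 128 at 16 wkpp. Outside the 2 high libraries the gene lay between 54.2 and 145 in all groups. Its exon difference at -4 relative to 1 wkpp was 0.79 (0.68) in LE and 0.83 (0.60) in HE cows, with adjusted p values of 0.67 and 0.32. Without the -4 wkpp library of 553 the differences were 0.10 and 0.14. In HE cows the exon values of these groups did not overlap, by 135.4 against 134.9, and the whole gene values did.

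ETV5 is a transcription factor whose mRNA follows ERK activity, often after fibroblast growth factors. *ETV5* had 426, 489 and 272 normalised exon reads at -4 wkpp. In LE cows it had 294, 424.5 and 209.8 at 1 wkpp and 506, 312 and 173 at 16 wkpp. Values of HE cows were 79.5, 116 and 103 at 1 wkpp and 106, 121 and 144.0 at 16 wkpp. Each HE library was below each library of the other groups, in the exon reads only. By group mean the order was -4 wkpp (396 ± 112, SD, n = 3), LE 16 wkpp (330.3 ± 167), LE 1 wkpp (309 ± 108), HE 16 wkpp (124 ± 19.1) and HE 1 wkpp (99.5 ± 18.6), and the first 3 groups overlapped each other, as did the last 2.

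At -4 relative to 1 wkpp in HE cows, *ETV5* was 4.09-fold higher with exon reads, a log2 difference of 2.03 (0.35, adjusted p 0.0022, limma). With whole gene reads the difference was 1.54 (0.42, adjusted p 0.072) and the gene was not called, although the groups did not overlap in either analysis. Between these groups, -4 and 1 wkpp HE, the summed markers did not overlap for adipocytes (11150.5 to 12684 against 6561 to 9586, 3 of 6 markers), fibroblasts (8094 to 12530.5 against 861 to 4624), mast cells (2769.9 to 4449.9 against 273 to 434), T cells (151 to 233 against 59.5 to 118, 5 of 5 markers) and skeletal muscle (85.0 to 357 against 1175 to 4050.4), and their part in the difference was not tested. In LE cows the difference of *ETV5* was 0.39 (interval -0.29 to 1.08, adjusted p 0.63). The 2 comparisons share their -4 wkpp libraries. Set side by side at 1 wkpp, *ETV5* was 3.17-fold higher in LE than in HE cows with exon reads (log2 1.66, 0.39, adjusted p 0.023), with no overlap. With whole gene reads it was 2.04-fold higher (log2 1.03, adjusted p 0.30), and the groups overlapped. At 16 wkpp the difference was 1.35 (0.45, adjusted p 0.058) with exon reads and 1.19 (adjusted p 0.11) with whole gene reads, and the groups did not overlap in either. Leaving out single libraries gave exon differences from 0.96 to 1.73, the highest without library 3 of LE (adjusted p 0.0062 by limma). Over all alternatives the adjusted p of this exon difference ranged from 0.0062 to 0.26. Between 1 and 16 wkpp the exon difference was -0.35 (interval -1.01 to 0.32) in HE cows and -0.05 in LE cows.

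These results were set against all genes, and *SPRY4* is left out of the counts wherever an LE group is compared. Between -4 and 1 wkpp in HE cows, 0 of the 8 genes and 20 of 9878 genes (0.202%) were called. With exon reads alone it was 1 of 8, *ETV5*, against 16.4% of all genes, and an unadjusted exon p below 0.05 was reached by 3 of 8 (*SPRY2*, *SPRY4* and *ETV5*) against 42.2%. Groups that did not overlap in both analyses were found for 2 of 8 (*SPRY2* and *ETV5*) against 31.0%, and for 3 of 8 with exon reads, *DUSP4* added, against 46.8%. Shares near those of all genes are not a result about the family.

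Between -4 and 1 wkpp in LE cows, 0 of 7 genes and 0 of 10069 (0%) were called. An unadjusted p below 0.05 was reached by 2 of 7 (*DUSP5* and *DUSP6*, with negative differences) against 14.0% of all genes, and 0 of 7 did not overlap in both analyses against 11.0%. With exon reads 1 of 7 (*DUSP6*) did not overlap, against 19.2%. Between 1 and 16 wkpp in the HE group, 0 of 8 and 0 of 9351 (0%) were called, and 0 of 8 reached an unadjusted p below 0.05 against 13.6%. In that comparison no gene of the family had groups that did not overlap, against 12.1% in both analyses and 20.2% with exon reads. In LE cows the comparison was the one the family was chosen on, so no count of its genes is given. Of all genes there 0 of 10001 (0%) were called, 7.06% had an unadjusted p below 0.05, and 7.00% did not overlap in both analyses or 12.0% with exon reads.

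Between the LE and HE groups of 1 wkpp, 0 of 7 and 0 of 9830 (0%) were called, 1 of 7 (*ETV5*) reached an unadjusted p below 0.05 against 31.8%, and 0 of 7 did not overlap in both analyses against 25.9%, or 1 of 7 (*ETV5*) with exon reads against 39.4%. At 16 wkpp, 0 of 7 and 334 of 9743 (3.43%) were called, with exon reads alone 0 of 7 against 10.1% and with whole gene reads 0 of 7 against 3.79%. The background itself rests on few libraries. Without 1 library at a time 23 to 78 genes were called at 16 wkpp in place of 334, and 0 in place of 20 between -4 and 1 wkpp in HE cows. An unadjusted p below 0.05 was reached at 16 wkpp by 1 of 7 (*ETV5*, higher in LE cows) against 37.7%, and the same gene did not overlap in both analyses against 30.6%, nor with exon reads against 43.6%. The median exon difference of the family, on the log2 scale, was -0.01 at -4 relative to 1 wkpp and -0.19 at 1 relative to 16 wkpp in HE cows (8 genes). Without *SPRY4* (7 genes) it was -0.16 at -4 relative to 1 wkpp in LE cows and 0.27 and 0.14 in LE relative to HE cows at 1 and 16 wkpp, beside medians of -0.02 to 0.05 for all genes.

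The share of whole gene reads that fell outside exons does not depend on the scaling between libraries. It was between 71.0 and 87.6% in the libraries for *SPRED1* and, summed over the 15 libraries, 52.8% for *DUSP5*, 52.4% for *SPRY4*, 48.0% for *ETV5*, 36.1% for *DUSP4* and 11.0% for *DUSP6*, and 0% for *SPRY1* and *SPRY2*. For *ETV5* it was 52.2, 72.8 and 76.9% in the HE libraries of 1 wkpp against 38.2, 45.4 and 47.5% in the LE libraries of 1 wkpp, with no overlap. The lower 2 of these HE libraries in depth had the 2 highest shares, and their exon reads of *ETV5* numbered 43 and 28. For *SPRY4* it was 40.1, 39.5 and 41.7% in HE cows and 49.3, 57.5 and 51.6% in LE cows at 16 wkpp, as a description.

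Groups with shares that did not overlap were counted over 10743 genes. At -4 relative to 1 wkpp they were found for 0 of 6 family genes in HE cows against 26.7% of all genes and, without *SPRY4*, for 1 of 5 (*SPRED1*) in LE cows against 6.05%. From 1 to 16 wkpp they were found for 1 of 6 (*DUSP4*) in the HE group against 14.0%, and in the LE group 7.79% of all genes had them. In LE relative to HE cows, without *SPRY4*, they were found for 2 of 5 at 1 wkpp (*DUSP6* and *ETV5*) against 30.7% and for 1 of 5 at 16 wkpp (*SPRED1*) against 37.1%. At 16 wkpp, 3572 of these 3981 genes had the higher share in LE cows, and over all recovered genes it was 48.3, 44.9 and 36.4% in the HE libraries, all below the LE libraries, of which the highest had 53.1%. At 1 wkpp 2246 genes had the higher share in LE cows and 1048, with *ETV5* among them, the higher share in HE cows. The difference of *SPRED1* at 16 wkpp thus had the direction of most genes and that of *ETV5* at 1 wkpp the direction of fewer.

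**Figure D3:**
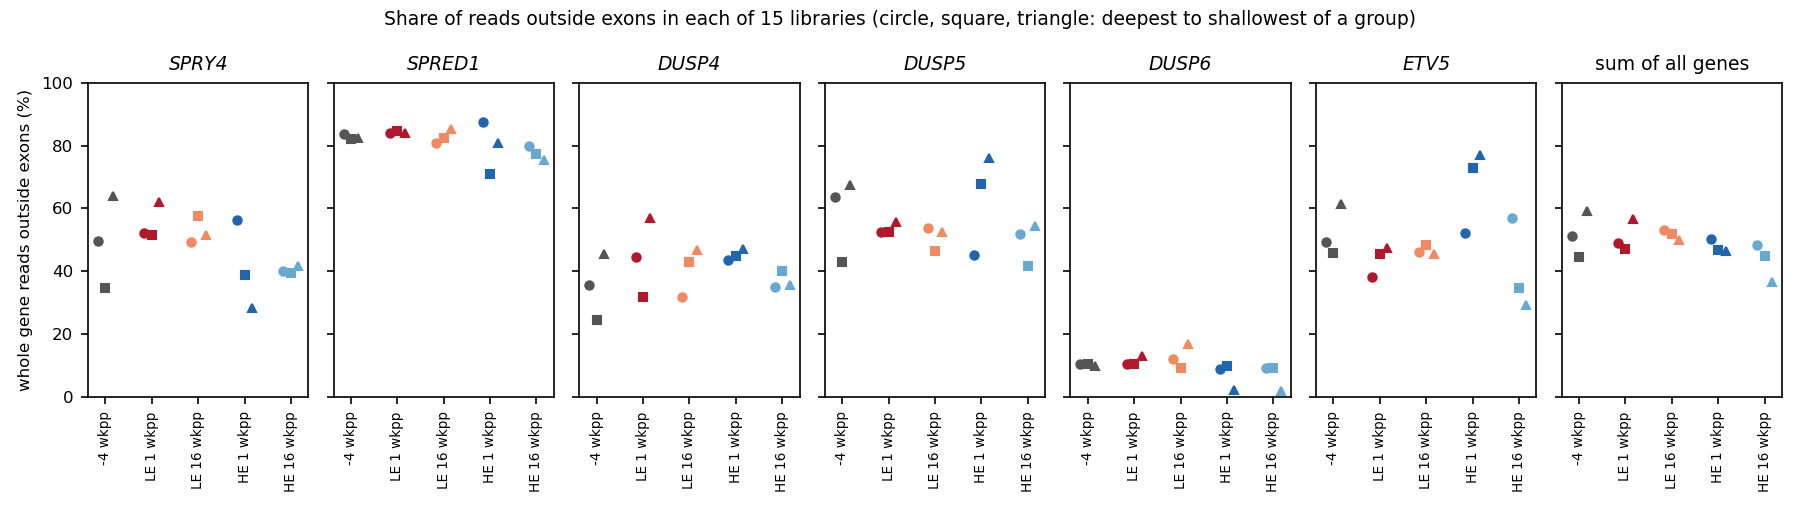
Share of whole gene reads outside exons (percent, axis from 0 to 100) in each of the 15 libraries for the 6 genes with such reads and for all recovered genes summed. *ETV5* reached 72.8 and 76.9% in 2 HE libraries of 1 wkpp, while the summed share was lowest, 36.4%, in an HE library of 16 wkpp.

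The remaining pathway was described from lists of its parts, written with earlier results of these data known. Of 122 listed genes 98 were in the tables and 81 to 85 were tested in a comparison. In 5 comparisons none was called, and between the LE and HE groups of 16 wkpp 4 of 84 were, beside 3.43% of all genes. *KIT*, the receptor for stem cell factor, had 1646, 1555 and 1864 normalised exon reads in LE and 277, 224.5 and 397 in HE cows at 16 wkpp (log2 2.54, adjusted p 0.00041 with exon and 0.0033 with whole gene reads, limma). *KIT* is also a mast cell marker, and the summed mast cell markers were 1984 to 2449 in these LE and 248 to 516 in these HE libraries. That sum contains *KIT*, which makes up most of it, so it is no separate measure of mast cells here.

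*PDGFA*, a platelet-derived growth factor chain, had 169, 145 and 132 normalised exon reads in LE and 606, 498 and 519 in HE cows at 16 wkpp (log2 -1.89, adjusted p 0.00054 and 0.0020). *RASGRP2*, an exchange factor that is active mainly on RAP1, had 88.3, 57.9 and 84.4 in LE and 263, 374 and 323 in HE cows (log2 -2.02, adjusted p 0.00096 and 0.0043). *LZTR1*, an adaptor for the degradation of RAS proteins, had 585, 613 and 551.0 in LE and 1601, 1375 and 2255 in HE cows (log2 -1.56, adjusted p 0.0013 and 0.0056). In each of the 4 genes the 3 libraries of one group were apart from the 3 of the other.

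By role, at 16 wkpp 1 of 15 ligands was lower in LE cows, 1 of 9 receptors higher, 1 of 6 adaptors and exchange factors lower, 0 of 14 members of the kinase cascade called, 1 of 14 other inhibitors lower and 0 of 26 target genes called. The target genes, among them the immediate early genes of the FOS and EGR families, had a median exon difference of -0.39 in LE relative to HE cows at 16 wkpp beside 0.02 for all genes. Their medians were -0.48 and -0.45 at -4 relative to 1 wkpp in LE and HE cows, beside -0.02 and 0.03 for all genes. These 2 comparisons share the -4 wkpp libraries. At 1 relative to 16 wkpp the medians were 0.13 in LE and -0.47 in HE cows, and in LE relative to HE cows at 1 wkpp 0.15, beside -0.01, 0.01 and 0.05 for all genes. At -4 relative to 1 wkpp, 2 of 26 target genes (LE) and 3 of 25 (HE) did not overlap in both analyses, against 11.0% and 31.0% of all genes. At 1 relative to 16 wkpp it was 0 of 26 (LE) and 3 of 26 (HE), against 7.00% and 12.1%. In LE relative to HE cows it was 4 of 25 at 1 wkpp and 8 of 26 at 16 wkpp, against 25.9% and 30.6%. Within the kinase cascade the medians stayed between -0.14 and 0.06 in all 6 comparisons, and with exon reads 0 of 14 had an adjusted p below 0.01, beside 16.4% of all genes at -4 relative to 1 wkpp in HE cows, 10.1% in LE relative to HE cows at 16 wkpp and 0 to 2.55% in the others.

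The genes most like *SPRY4* were ranked by Pearson correlation of log2 normalised exon reads over the 15 libraries, among 8199 genes with at least 100 reads in a library on average. *SPRY4* was chosen for this ranking with its level at 1 wkpp in view, and the libraries share groups, depth and tissue makeup, so the ranking is a description. The 5 highest were *BCAM* (r = 0.865), a laminin receptor, *GLYR1* (0.854), *EPAS1* (0.853), which encodes the hypoxia-inducible factor HIF-2 alpha, *ALDH16A1* (0.849) and *ESAM* (0.845), an adhesion molecule of endothelial cells. Among the other genes of the family, *DUSP6* had r = 0.528 (rank 830), *SPRY2* 0.323, *SPRY1* 0.151, *DUSP4* 0.023, *SPRED1* -0.424 and *ETV5* -0.451, while *DUSP5* had too few reads to be ranked. All 5 genes were highest in the HE library of 1 wkpp in which *SPRY4* was highest, which the ranking favours.

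**Figure D4:**
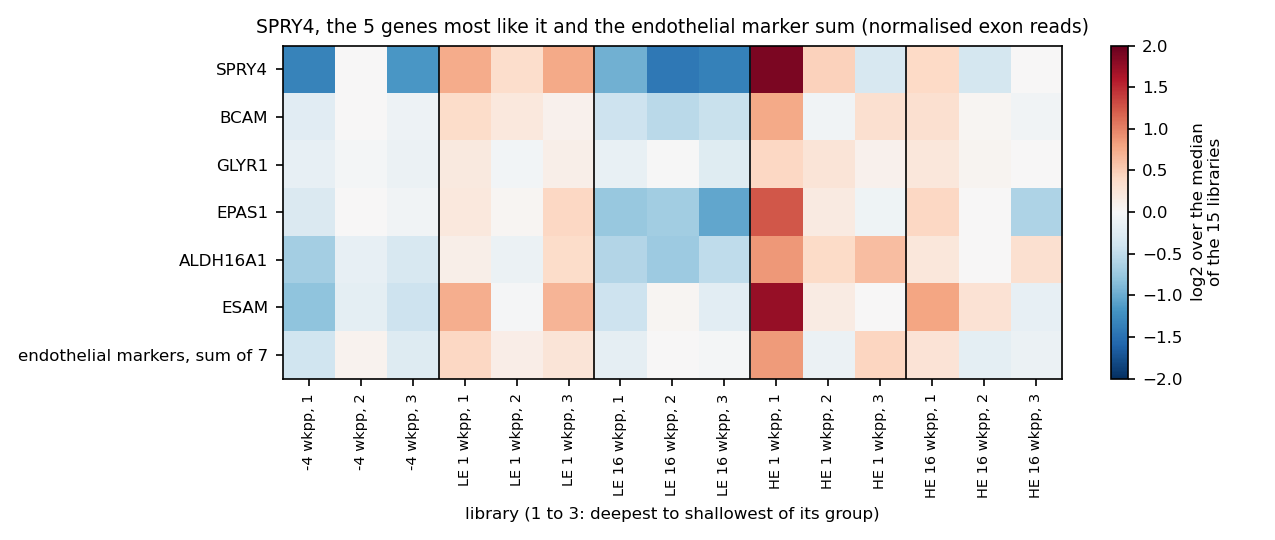
*SPRY4*, the 5 genes most like it and the sum of 7 endothelial markers in each of the 15 libraries, as log2 of the normalised exon reads over the median of the 15 libraries. The deepest HE library of 1 wkpp stands highest in *SPRY4* (560.5 reads) and in the marker sum (12581), and *ESAM* is both one of the 5 genes and one of the markers.

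Markers of cell types moved with the groups. The sum of 7 endothelial markers was 7690 to 9338 normalised exon reads in LE cows at 1 wkpp, against 6155 to 7008 at 16 wkpp and 5293 to 7394 at -4 wkpp, and only the libraries of 1 wkpp stood apart. *PECAM1* and *VWF*, the other markers of the list, were too abundant for recovery. In HE cows the sum was 6438 to 12581 at 1 wkpp and 6104 to 8470 at 16 wkpp, and no endothelial marker recovered was at 0 in a whole group. Between HE and LE cows, skeletal muscle markers (6 of 6 recovered) summed to 1175 to 4050.4 in the HE and 108 to 340.1 in the LE libraries, macrophage markers (7 of 8) to 2551 to 9223 against 11190 to 26296, and mast cell markers (3 of 4) to 248 to 516 against 1137 to 3098. The muscle marker *MYLPF* was at 0 in the -4 wkpp libraries and the HE libraries of 16 wkpp, and *MYH1* in the LE libraries of 1 wkpp. Smooth muscle and pericyte markers (4 of 6) summed to 8321 to 28506 in HE and 3079 to 8126 in LE libraries of 16 wkpp, with no overlap, and overlapped between the groups at 1 wkpp. T cell markers (5 of 5) summed to 91.5 to 293 in LE and 69.7 to 76.1 in HE libraries of 16 wkpp, with no overlap, and overlapped at 1 wkpp. Keratinocyte markers (4 of 5) were low, at 2.62 to 6.52 in LE and 7.32 to 334.5 in HE libraries of 1 wkpp, and Schwann cell markers (4 of 4) overlapped between all groups compared. Fibroblast markers (2 of 6) summed to 8094 to 12530.5 at -4 wkpp, 3691 to 5900 in LE cows at 1 wkpp and 7573 to 12556 in LE cows at 16 wkpp, with the LE libraries of 1 wkpp apart from and below both others. In HE cows they summed to 861 to 4624 at 1 wkpp and 1711 to 5099 at 16 wkpp, below all LE libraries at 16 wkpp. The part of these markers in the values of *SPRY4* and *ETV5* was not tested.

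The tissue label was checked against adipocyte markers. *FABP4* and *PLIN1* were too abundant for recovery of single reads, and their means over 6 libraries, as the authors give them, were 7323 to 56088 and 3790 to 30607 normalised exon reads over the 6 tables. The 3 recovered adipocyte markers, *CIDEC*, *LEP* and *LIPE*, also moved with the groups. They summed to 11150.5 to 12684 normalised exon reads at -4 wkpp, 12252 to 12643 in LE cows at 1 wkpp and 6880.3 to 8707 in LE cows at 16 wkpp, the last apart from both others. In HE cows they summed to 6561 to 9586 at 1 wkpp, below all libraries of -4 wkpp and of LE cows at 1 wkpp, and to 2760.1 to 11098 at 16 wkpp. Their part in the values of *SPRY4* and *ETV5* was not tested.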

How the data were processed

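RNA of subcutaneous adipose tissue was sequenced from 15 libraries. According to the study's methods and the submitters' processing notes, bcl2fastq 2.15.0 and Cutadapt 1.3 prepared the reads, TopHat2 mapped them (build bosTau8), HTSeq counted them on exons and again on the entire gene with introns, and DESeq2 compared the groups. The kit was stranded, so reads of antisense genes can be told apart, but the strand setting of the count was not given in the sources used here. Each of 6 deposited tables holds, per gene and analysis, the authors' mean of normalised counts over its 6 libraries, with 15 printed digits, which is the value used. The tables also hold the authors' log2 fold changes, standard errors, Wald statistics and p-values. These were not used. No column belonged to other samples (0 columns).

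A mean is the sum of whole reads over size factors. Means of genes with very few reads, found in 1 group, gave the size factors, the tables that contain a library gave its group, and the 6 equations of a gene were solved for 15 whole numbers by lattice reduction (Python 3.11.15, sympy 1.14.0). Reads were accepted at a relative residual up to 4e-14. They were recovered for 13767 of 13896 genes (99.07%) with exon reads and 13379 (96.28%) with whole gene reads, and the most abundant genes were not. As a check, 104 genes with at least 20 exon reads in each library had the same reads in both analyses, solved separately, in all 15 libraries. No pair of libraries of a group agreed within sampling noise (chi-square of at least 11.7 per degree of freedom over genes). The 92 spike-in RNAs were left out of all tests.

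Genes with a mean of at least 10 reads per library in a comparison were tested with limma 3.58.1 (R 4.3.3) after voom, with size factors by the median of ratios, on the 6 libraries of that comparison. Confidence intervals are 95% intervals from the moderated test. With 3 libraries against 3 an exact two-sided permutation test cannot go below 0.1, so none was run. The scripts were tested on simulated data. Alternatives were another scaling, another weighting, no filter, a fit on all 15 libraries and the removal of single libraries. The family, the pathway and marker lists and the tests were chosen with earlier results of these data known. Named genes are all family members, list genes called in both analyses (at most 3 per list and comparison) and the 5 genes most like *SPRY4*. *MYLPF*, *MYH1*, *PECAM1*, *VWF*, *FABP4*, *PLIN1*, *CIDEC*, *LEP* and *LIPE* are named from the marker lists, and *IER3* and *FOSL2* from the target genes after their values were seen. No genome of the files' build was used, so positions and sequences are not given.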

Additional observations from a re-analysis of the deposited data

How the results depend on the processing

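With 0 genes of the family called in each comparison, the alternatives that gave another count were 1 gene with exon reads alone at -4 relative to 1 wkpp in HE cows (*ETV5*), 1 with library quality weights at -4 relative to 1 wkpp in LE cows (*SPRY4*), and 1 with exon reads alone or at an adjusted p of 0.05 for LE relative to HE at 16 wkpp (*SPRY4*). Both *SPRY4* counts hold the libraries its choice was made on and support nothing. Leaving out single libraries gave 0 to 0 called genes in each. No paired analysis was possible because the recovered libraries carry no cow or replicate number. The count over all genes depended strongly on the processing. At -4 relative to 1 wkpp it was 20 in HE and 0 in LE cows by voom. With quality weights it was 1404 and 220, and in a fit on all 15 libraries 949 and 20. In HE cows it was 62 with scaling by total reads and 100 by upper quartile. With no filter on reads it was 0 in HE cows. In LE cows these scalings and the missing filter left it at 0. With a limma trend (pseudocount 1) in place of voom it was 102 and 5. For LE relative to HE at 1 wkpp it was 0 by voom, 269 in the fit on all 15 libraries and 567 with quality weights. At 16 wkpp it was 334, 430 and 440. It also depended on single libraries: without 1 at a time it was 0 (HE) and 0 to 46 (LE) at -4 relative to 1 wkpp, and 0 to 314 at 1 wkpp and 23 to 78 at 16 wkpp for LE relative to HE. The cause was not tested.

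Of 672 values of single genes under alternatives, those given as descriptions included, 627 kept their direction and side of the threshold, 13 were no longer past it, 3 came to be past it and 29 had the opposite sign. With quality weights the sign turned for *SPRY2* at 1 relative to 16 wkpp in HE cows (0.00), for *DUSP4* at 1 relative to 16 wkpp in LE cows (-0.12), and for *SPRY4* (0.06), *SPRED1* (-0.07) and *DUSP4* (-0.22) in LE relative to HE cows at 1 wkpp. With whole gene reads it turned for *ETV5* at 1 relative to 16 wkpp in HE cows (0.26) and for *SPRY1* in LE relative to HE cows at 16 wkpp (-0.06). Leaving out single libraries gave ranges across 0 at -4 relative to 1 wkpp for *DUSP5* (-1.31 to 0.17) and *DUSP6* (-0.53 to 0.00) in HE and *SPRY2* (-0.52 to 0.12) in LE cows. At 1 relative to 16 wkpp they were *SPRY2* in HE (-0.32 to 0.12) and *SPRY2* (-0.28 to 0.49), *DUSP4* (-0.53 to 0.55) and *ETV5* (-0.43 to 0.34) in LE cows. For LE relative to HE they were *SPRY4* (-0.73 to 0.49), *SPRED1* (-0.22 to 0.28) and *DUSP4* (-0.65 to 0.43) at 1 wkpp, and *SPRY1* (-0.09 to 0.40), *SPRED1* (-0.10 to 0.15) and *DUSP4* (-0.02 to 0.46) at 16 wkpp. The largest of these differences with all libraries was 0.74 in size. The lowest exon count of a family gene was 6, for *DUSP5* in an HE library of low depth.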

Other observations

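The 2 libraries with the highest *DUSP4* (553 and 340.0 normalised exon reads) were also the highest of their groups, -4 wkpp and LE 1 wkpp, in *ETV5* (489 and 424.5) and the lowest in *SPRY1* (809 and 699.8) and *SPRY2* (138 and 115). They were likewise highest in *DUSP6* (710 and 879) and lowest in *SPRED1* (662 and 583). *SPRY4* (151.9 and 193.7) and *DUSP5* (55.3 and 54.0) were highest of the group at -4 wkpp but lowest of it in LE cows at 1 wkpp. The macrophage marker sums of the 2 libraries, 15968 and 24222, were the highest of these 2 groups. The LE libraries of 16 wkpp, with macrophage sums of 21375 to 26296, had 83.8 to 139.5 normalised exon reads of *DUSP4*. *IER3*, a target gene chosen here after its values were seen, had 884 and 623 normalised exon reads in these 2 libraries and 132 to 332 in the other 13. These are values of single libraries, and no test was made.

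*FOSL2*, a target gene chosen after its values were seen, had 773, 949 and 857 normalised exon reads at -4 wkpp and 4159, 3240.4 and 3639 in HE cows at 1 wkpp, with no overlap. In LE cows at 1 wkpp it had 3114, 1232 and 3026. It was among the 11 of 82 pathway genes (13.4%) past an adjusted p of 0.01 with exon reads in the comparison of -4 with 1 wkpp in HE cows, beside 16.4% of all genes, and it was not called in both analyses.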
